A study of Homo sapiens with 10 samples.

Results

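The genes described are 9 members of the MHC class I presentation machinery, chosen by symbol from the 62709 gene entries with values in a table of raw read counts. They are the heavy chains HLA-B, HLA-C, HLA-E and HLA-F, the light chain B2M, the peptide transporter subunits TAP1 and TAP2, the loading factor TAPBP and the transactivator NLRC5. Each symbol matched 1 entry, and 6 of the 9 had enough reads to pass the filter on low counts (15832 genes passed in all). RNA was sequenced from H441, an established human lung adenocarcinoma line, in 10 libraries from 4 groups. KO (3 libraries) is the line after CRISPR-Cas9 knockout of TET1, which encodes a dioxygenase that acts on methylated cytosine. OE (2 libraries) is the line transiently transfected with a plasmid for full-length human TET1. Lipo (2 libraries) carries the label wild type without treatment and a title word that the labels do not explain, and WT (3 libraries) is the untreated wild type. All groups grew in the same serum-supplemented RPMI medium. Whether KO is a single clone, and which promoter drives the plasmid, were not given in the sources used here. Nothing in the labels ties the replicates to different cultures. The p-values therefore measure the spread between these libraries, which may be technical.

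MHC class I molecules carry short peptides from the inside of a cell to its surface, where cytotoxic T cells and natural killer cells read them. The proteasome cuts the peptides, the TAP1 and TAP2 transporter moves them into the endoplasmic reticulum, and tapasin (TAPBP) helps load them onto a heavy chain paired with beta-2 microglobulin (B2M). NLRC5 is a nuclear protein that, with a complex of RFX, CREB and NF-Y factors, drives transcription of class I genes, and interferon raises transcription of many genes of the pathway.

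Total counts per library ran from 20994462 to 25981097. TET1 had 17883 and 20805 reads in OE, against 0 and 1 in Lipo. It had 4, 0 and 8 reads in KO, against 2, 7 and 0 in WT, too few for the labelled knockout to be seen in the RNA. The epithelial markers EPCAM, KRT8, KRT18, KRT19, KRT7 and CDH1 passed the filter, and their summed level was 8432 CPM or more in all libraries, where CPM stands for counts scaled to a common library size by edgeR's TMM method. By edgeR's test CDH1 (log2 -0.75) and KRT7 (log2 -0.46) were lower in KO against WT, as were 7.45% of all genes tested. KRT7 was higher in OE against Lipo (log2 0.63), as were 6.79% of all genes tested. EPCAM, KRT8, KRT18 and KRT19 were not called in these comparisons. Of 6 lung lineage markers 4 passed, SCGB1A1 was listed at 0 and SFTPC had 2 reads over all 10 libraries. The surfactant gene SFTPB was lower in OE against Lipo (29.7 ± 0.586 against 75.9 ± 1.69 CPM, log2 -1.35), in KO against WT (49.5 ± 9.47 against 195 ± 20.4 CPM, log2 -1.97) and in Lipo against WT (log2 -1.36). SFTA3 was lower in OE against Lipo (log2 -1.07). These 4 differences passed edgeR's test. NKX2-1 and NAPSA were not called in these comparisons (log2 0.00 and -0.39 in OE against Lipo, 0.06 and 0.31 in KO against WT). Of all genes tested, 5.53% were called lower in OE against Lipo and 7.45% in KO against WT. In Lipo against WT 3.70% were called in either direction.

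The table held few reads for the stretch of chromosome 6 in which 7 of the 9 genes lie. From the start of HLA-F to the end of TAPBP (chr6:29722775-33314387, GRCh38, 3.59 megabases), 16 of 149 protein-coding genes passed the filter, or 10.7%, and 93 were listed at 0 in all 10 libraries. In equally long flanks the share that passed was 43.6% before the window and 57.6% after it, and it was 61.9% in the rest of the genome. Genes that every cell uses were affected, as named here after their values were seen. RPS18, a protein of the small ribosomal subunit, averaged 0.635 CPM, while the median over 31 other RPS genes was 316 CPM, and the tubulin gene TUBB held 2 reads in all libraries together. A count of 0 or near 0 in this window was therefore not read as absence of the transcript. The handling of reads with several alignments is not given in the sources used here, and the cause of the gap was not tested.

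**Figure D1:**
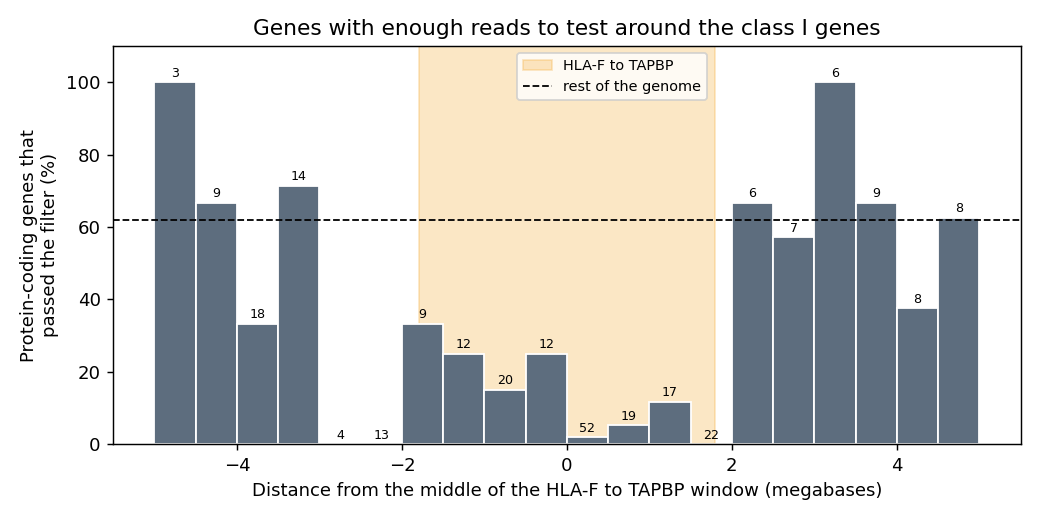
Share of protein-coding genes that passed the filter on low counts (vertical axis, percent) in 0.5 megabase bins on chromosome 6, by distance from the middle of the HLA-F to TAPBP window (horizontal axis), with the number of genes above each bar. Within the shaded window 10.7% of genes passed, against 61.9% in the rest of the genome (dashed line).

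TAP1, a subunit of the peptide transporter, was listed at 0 in every library, those of OE included. TAPBP had 1 read in KO 1 and 1 in WT 1, and none in the other libraries. HLA-E, a heavy chain that natural killer cells recognise, had 0, 6 and 0 reads in KO, 15 and 1 in OE, 1 and 0 in Lipo and 0 in each WT library. None of the 3 passed the filter, and no difference is drawn from them. Their neighbours PSMB8 and PSMB9, subunits of the immunoproteasome, held 0 reads and 1 read over all 10 libraries. TAP2, the partner of TAP1, passed the filter with very few reads: 11, 6 and 17 in KO, 7 and 8 in OE, 6 and 6 in Lipo, and 10, 6 and 2 in WT. In the annotation of GENCODE release 29, 32.3% of TAP2 exon sequence is shared with another protein-coding gene on the same strand, AL669918.1.

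For the cells given the TET1 plasmid, OE was compared with Lipo. No group is labelled as given a plasmid without TET1. Effects of TET1 and of the transfection with plasmid DNA therefore cannot be told apart here. Of the 6 tested members 5 rose, namely HLA-B, HLA-C, HLA-F, B2M and NLRC5. The rise ranged from 2.99-fold for HLA-C to 19.6-fold for HLA-B. TAP2 did not pass the test (log2 0.44, SE 0.90, adjusted p = 0.807 by edgeR's quasi-likelihood test with Benjamini-Hochberg adjustment over all genes tested, as for every adjusted p here). Of all 15832 genes tested, 12.3% were called in this comparison in either direction, 6.79% higher and 5.53% lower. The median log2 change over the 6 tested members was 2.27, and -0.01 over all genes tested. In RNA from a whole culture, a larger share of cells with raised class I RNA and more of it in every cell cannot be told apart.

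HLA-B (ENSG00000234745, chr6:31269491-31357188, minus strand), a classical heavy chain, stood at 171 and 168 CPM in OE, against 7.99 and 9.25 CPM in Lipo. Both OE libraries lay far above both Lipo libraries (log2 4.29, SE 0.32, adjusted p = 2.85e-07). HLA-C (ENSG00000204525, chr6:31268749-31272130, minus strand), the other classical heavy chain of the set, stood at 8.38 and 9.89 CPM in OE, against 3.54 and 2.55 CPM in Lipo. The groups did not overlap, but neither did those of TAP2, which was not called, and how many of all genes do the same was not counted. The HLA-C rise was the smallest of the 5 (log2 1.58, SE 0.35, adjusted p = 0.00846). Its call ended without Lipo 3 (log2 1.36, adjusted p = 0.125) and without OE 2 (log2 1.45, adjusted p = 0.0850), and over all alternatives the adjusted p ran from 9.90e-06 to 0.125. HLA-F (ENSG00000204642, chr6:29722775-29738528, plus strand), a nonclassical heavy chain, stood at 8.73 and 12.3 CPM in OE, against 0.416 and 0.866 CPM in Lipo. That rise was 16.4-fold (log2 4.03, SE 0.70, adjusted p = 0.00153), with 444 reads in the 2 OE libraries and 29 in the 2 Lipo libraries. The rise was log2 3.58 without Lipo 2 and 4.63 without Lipo 3. Heavy chain genes resemble each other closely, so reads can be shared between them. Of HLA-F exon sequence, 12.3% lies opposite the antisense gene HLA-F-AS1 and 16.1% opposite the pseudogene AL645939.1. Of HLA-B exon sequence, 17.8% lies opposite the pseudogene AL671883.2, and the strand setting of the counting is not given in the sources used here.

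B2M (ENSG00000166710, chr15:44711487-44718877, plus strand), the light chain that all class I heavy chains need, lies outside the sparse window and had the most reads of the 9 genes. It stood at 391 and 398 CPM in OE, against 115 and 114 CPM in Lipo. The replicates nearly coincided within each group, and the rise was 3.45-fold (log2 1.79, SE 0.27, adjusted p = 4.50e-04). NLRC5 (ENSG00000140853, chr16:56989485-57083531, plus strand), the transactivator, also lies outside the window. It stood at 82.7 and 74.2 CPM in OE, against 13.7 and 9.48 CPM in Lipo, a 6.77-fold rise (log2 2.76, SE 0.27, adjusted p = 6.07e-06). The calls for HLA-B, HLA-F, B2M and NLRC5 held under each of the alternatives run.

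**Figure D2:**
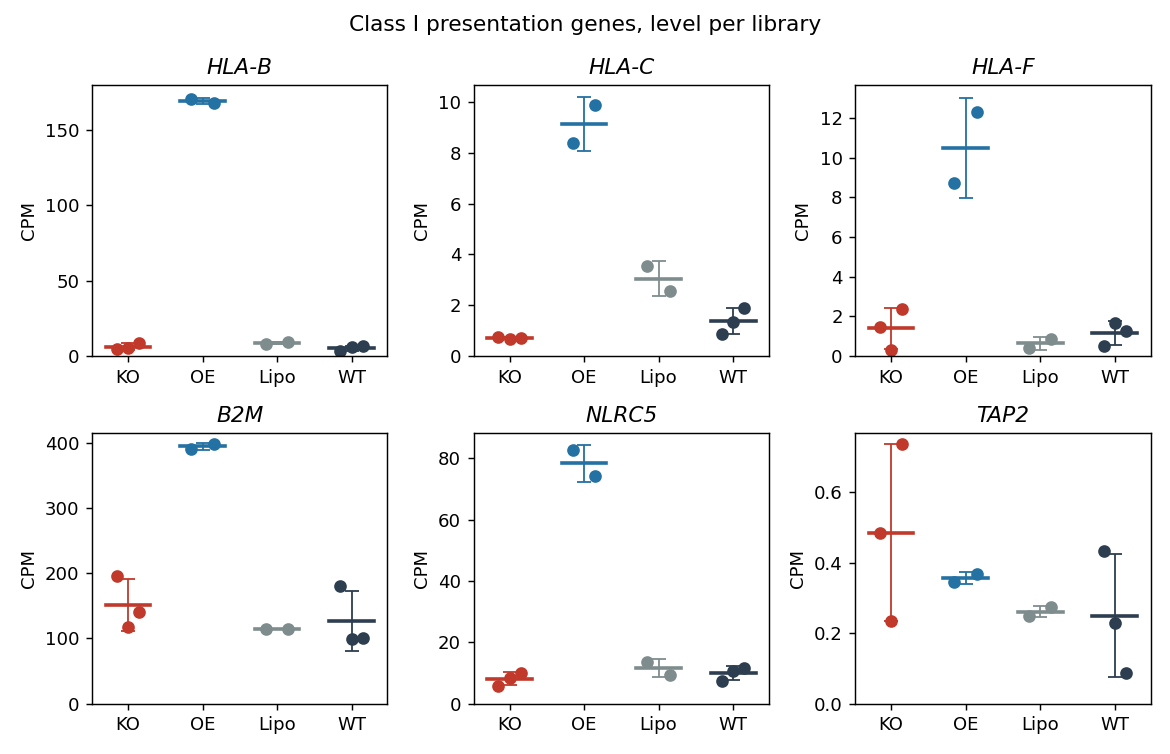
Level of the 6 tested genes in CPM (vertical axes, linear, each gene on its own scale) in the KO, OE, Lipo and WT libraries. Points are libraries, lines are means and bars are 1 SD (n = 3, 2, 2 and 3). For all genes except TAP2 both OE libraries lie above every other library.

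The makeup of the class I reads differed between the groups. HLA-B held 25.7% and 25.3% of the reads of the 9 genes in OE, against 5.68% and 6.78% in Lipo, and B2M held 59.0% and 60.1% in OE, against 81.6% and 83.6% in Lipo. There were 20.3 and 17.0 reads of HLA-B for each read of HLA-C in OE, against 2.26 and 3.62 in Lipo. That ratio was also higher in KO, at 5.71, 8.35 and 12.8, against 3.65, 4.4 and 3.35 in WT. Scaled to exon length, B2M was the highest of the genes in OE, at 64.9 ± 0.839 CPM per kilobase (SD, n = 2), and HLA-B reached 55.4 ± 0.631. NLRC5 followed at 6.34 ± 0.485, HLA-C at 3.64 ± 0.425 and HLA-F at 2.42 ± 0.579. In Lipo, B2M stood at 18.8 ± 0.0855 CPM per kilobase (SD, n = 2), HLA-B at 2.83 ± 0.292, HLA-C at 1.21 ± 0.278, NLRC5 at 0.934 ± 0.238 and HLA-F at 0.148 ± 0.0732. The ranges of 1 SD around HLA-C and NLRC5 overlapped in Lipo. The 3 heavy chain genes lie in the sparse window and B2M and NLRC5 outside it, which limits this order of levels. So does the length used, which merges all annotated exons of a gene (6079 bases for B2M, 3051 for HLA-B and 12386 for NLRC5). That length can exceed the length of the RNA, by a factor that may differ between genes, so closeness of levels between genes was not interpreted.

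OE was also compared with WT, the other possible control, which shares the OE libraries with the comparison above. The same 5 genes rose (5 of 6 tested, where 25.0% of all genes tested were called in either direction and 12.3% were called higher). HLA-B stood at 171 and 168 CPM in OE, against 3.16, 5.88 and 6.31 CPM in WT (33.0-fold, log2 5.04, SE 0.28, adjusted p = 7.82e-09). The log2 rise was 2.74 for HLA-C (SE 0.32), 3.17 for HLA-F (SE 0.56), 1.64 for B2M (SE 0.23) and 2.98 for NLRC5 (SE 0.24). TAP2 did not pass (log2 0.50, adjusted p = 0.687). With no filter on low counts HLA-E was called as well, on 16 reads in OE, 15 of them in OE 1, against 0 in WT.

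To ask what the labelled knockout did, KO was compared with WT. None of the 6 tested members passed edgeR's test, while 12.6% of all genes tested were called, 5.13% higher and 7.45% lower. At an unadjusted p under 0.05 there was 1 member, HLA-C, and 26.6% of all genes tested, and DESeq2 called none of the members. HLA-C stood at 0.750, 0.664 and 0.693 CPM in KO, against 0.866, 1.34 and 1.88 CPM in WT. All KO libraries lay below all WT libraries, on 50 reads in KO and 98 in WT (log2 -0.95, SE 0.34, adjusted p = 0.0821). How many of all genes are separated in this way was not counted, so the separation was given no weight for HLA-C. It was called lower without WT 1 (log2 -1.19, adjusted p = 0.0271), and with Lipo and WT pooled as a control of 5 libraries (log2 -1.53, adjusted p = 0.0251). Without WT 1 and KO 1 together, a choice made after seeing the data, it was called as well (log2 -1.24, adjusted p = 0.0344). Over the alternatives the adjusted p ran from 0.0251 to 0.318.

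HLA-B stood at 4.28, 5.55 and 8.88 CPM in KO, against 3.16, 5.88 and 6.31 CPM in WT, and the groups overlapped (log2 0.28, SE 0.26, adjusted p = 0.545). HLA-F stood at 1.46, 0.313 and 2.38 CPM in KO, against 0.519, 1.68 and 1.27 CPM in WT (log2 0.24, SE 0.55, adjusted p = 0.838). The spread of HLA-F within each group exceeded the difference between them. NLRC5 stood at 5.91, 8.28 and 10.1 CPM in KO, against 7.36, 10.8 and 11.6 CPM in WT (log2 -0.29, SE 0.22, adjusted p = 0.441). B2M stood at 195, 118 and 141 CPM in KO, against 180, 99.6 and 100 CPM in WT (log2 0.26, SE 0.21, adjusted p = 0.490). Replicate 1 was the highest B2M library and the lowest HLA-B and NLRC5 library of its group in KO and in WT. Reads of HLA-B per read of B2M were 0.0219 in KO 1, against 0.0470 and 0.0630 in the other KO libraries, and 0.0176 in WT 1, against 0.0590 and 0.0628 in the other WT libraries. Without WT 1, B2M was called higher in KO (log2 0.60, adjusted p = 0.0261), and without both WT 1 and KO 1 the difference was smaller and also called (log2 0.37, adjusted p = 0.0209). Over the alternatives for B2M the adjusted p ran from 0.0209 to 0.939. TAP2 differed by 0.94 on the log2 scale (SE 0.71, adjusted p = 0.448), on 34 reads in KO and 18 in WT.

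**Figure D3:**
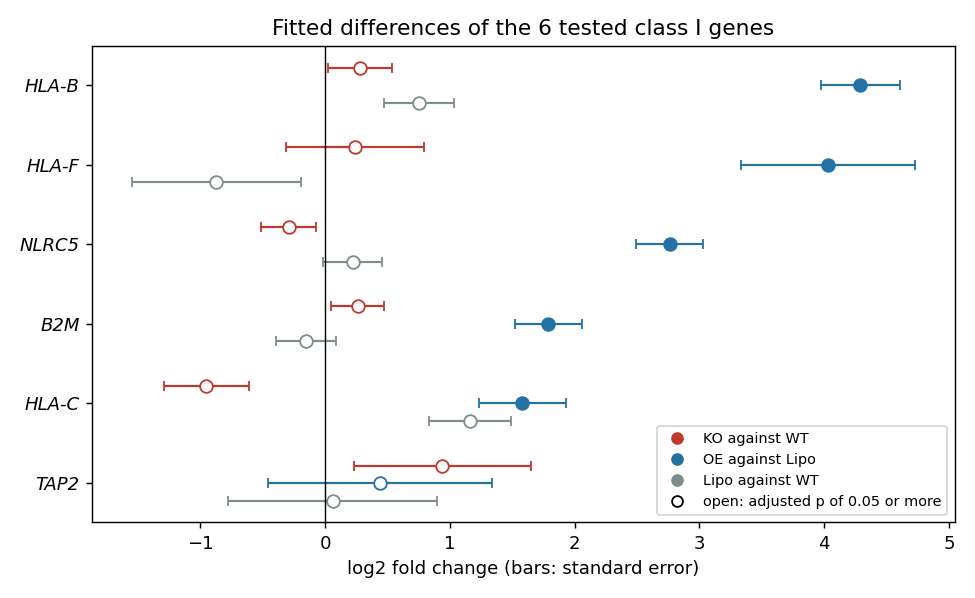
Fitted log2 fold changes of the 6 tested genes (horizontal axis) with their standard errors, for KO against WT, OE against Lipo and Lipo against WT. Filled points passed the test. They are the 5 rises in OE, from 1.58 for HLA-C to 4.29 for HLA-B.

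The OE effect was then tested against the KO effect, as the difference of the 2 log2 changes. Of the 6 tested members 5 differed, all with the larger change in OE (16.6% of all genes tested were called in either direction and 9.47% were called higher). The difference was 4.01 for HLA-B (SE 0.40, adjusted p = 6.45e-06), 3.80 for HLA-F (SE 0.88, adjusted p = 0.00837) and 3.05 for NLRC5 (SE 0.34, adjusted p = 2.30e-05). It was 2.53 for HLA-C (SE 0.49, adjusted p = 0.00233) and 1.53 for B2M (SE 0.34, adjusted p = 0.00635). For HLA-F it did not pass without Lipo 2 (3.35, adjusted p = 0.0628), and over the alternatives its adjusted p ran from 3.35e-09 to 0.0628. The HLA-F difference was 4.40 without Lipo 3 and 4.46 without KO 3. TAP2 showed -0.50 (SE 1.16, adjusted p = 0.818).

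Since Lipo and WT carry the same label, they were compared with each other. None of the 6 tested members passed edgeR's test, where 3.70% of all genes tested were called. At an unadjusted p under 0.05 there were 2 members, HLA-B and HLA-C, and 18.7% of all genes tested. HLA-C stood at 3.54 and 2.55 CPM in Lipo, against 0.866, 1.34 and 1.88 CPM in WT (log2 1.16, SE 0.33, adjusted p = 0.0706). DESeq2 called that difference (log2 1.17, adjusted p = 0.0417, and 0.0417 to 0.436 over the alternatives). HLA-B stood at 7.99 and 9.25 CPM in Lipo, against 3.16, 5.88 and 6.31 CPM in WT (log2 0.75, SE 0.28, adjusted p = 0.165). Neither gene overlapped between the groups, but how many of all genes do the same was not counted. With no filter on low counts both were called (adjusted p = 0.0435 for HLA-C and 0.00611 for HLA-B). Calls over all genes were then 1100, against 586 with the filter. B2M differed by -0.15 (SE 0.24), NLRC5 by 0.22 (SE 0.24), HLA-F by -0.87 (SE 0.68) and TAP2 by 0.06 (SE 0.84) on the log2 scale.

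Across the 4 groups, HLA-B averaged 6.23 ± 2.38 CPM in KO, 169 ± 1.92 in OE, 8.62 ± 0.891 in Lipo and 5.12 ± 1.71 in WT (SD, n = 3, 2, 2 and 3). Below OE, the levels of HLA-B in Lipo, KO and WT lay in that order. The Lipo and KO libraries overlapped, and so did the KO and WT libraries, while Lipo and KO were not tested against each other. For HLA-C the order below OE was Lipo, WT and KO, at 3.05 ± 0.697, 1.36 ± 0.510 and 0.702 ± 0.0437 CPM.

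Other genes of the pathway were described in 5 lists. Among 12 genes of peptide generation and trimming, 10 passed the filter and 2 rose in OE against Lipo, where 6.79% of all genes tested were called higher. They were ERAP1, the aminopeptidase that trims peptides in the endoplasmic reticulum (119 ± 1.26 against 58.5 ± 1.05 CPM, log2 1.02, adjusted p = 0.00221), and PSMB10, an immunoproteasome subunit (10.4 ± 0.783 against 4.94 ± 0.163 CPM). The call of PSMB10 ended without Lipo 2 (adjusted p = 0.0949), Lipo 3 (0.0815) or OE 1 (0.0821). In KO against WT the constitutive proteasome subunit PSMB6 fell, to 72.6 ± 10.5 CPM, against 105 ± 6.32 CPM in WT (log2 -0.53, adjusted p = 0.00942), and none rose, where 7.45% of all genes tested were called lower and 5.13% higher. PSMB6 did not pass without WT 2 (adjusted p = 0.0528) or with only KO and WT fitted (0.0538).

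Of 8 genes for folding and loading in the endoplasmic reticulum, all passed the filter, and 4 rose and 1 fell in OE against Lipo, beside 6.79% called higher and 5.53% called lower among all genes tested. TAPBPL, a relative of tapasin that edits the bound peptides, rose most (72.0 ± 0.914 against 27.5 ± 0.626 CPM, log2 1.39, adjusted p = 2.02e-05) and was called under each of the alternatives run. The chaperones HSPA5 (log2 0.67) and CALR (log2 0.45) and the translocon subunit SEC61A1 rose, and UGGT1, which checks glycoprotein folding, fell (log2 -0.64). When a Lipo or an OE library was left out, whichever it was, 1 gene of this list rose and none fell. In KO against WT none of the 8 were called by edgeR, and DESeq2 called UGGT1 lower (log2 -0.35, adjusted p = 0.0394, and 0.0249 to 0.183 over the alternatives).

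Of 18 regulators of class I transcription, 16 passed the filter, and 8 rose and none fell in OE against Lipo (6.79% and 5.53% of all genes tested). IRF1, an interferon-induced factor that binds class I promoters, stood at 73.0 ± 1.90 CPM in OE, against 13.9 ± 1.17 CPM in Lipo (log2 2.39, SE 0.20, adjusted p = 9.07e-07). STAT2, which carries interferon signals to the nucleus, rose by 1.39 and the NF-kB subunit NFKB1 by 0.99 on the log2 scale, and RELA, RFX5, IRF2 and CIITA were also called. At least 5 of the list rose whichever single library was left out. IRF9, a partner of STAT2, was listed at 0 in every library, outside the window on chromosome 6. In KO against WT only CIITA, the NLRC5 relative that drives class II genes, was called (4.42 ± 0.125 against 0.720 ± 0.268 CPM, log2 2.61). Of all genes tested 5.13% were called higher and 7.45% lower there. CIITA was also higher in Lipo against WT, which carry the same label (2.50 ± 0.0552 against 0.720 ± 0.268 CPM, log2 1.79, adjusted p = 0.00866). In that comparison 3.70% of all genes tested were called in either direction.

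All 7 genes of interferon gamma receptor signalling passed the filter, and 4 rose in OE against Lipo (6.79% of all genes tested), the feedback inhibitors SOCS1 (log2 2.75) and SOCS3 (log2 0.77), the receptor chain IFNGR2 (log2 1.60) and the kinase JAK1 (log2 0.47). That count fell to 1 without Lipo 2 or Lipo 3, to 0 without OE 1 and to 2 without OE 2. In KO against WT the phosphatase PTPN2 fell, as did 7.45% of all genes tested (log2 -0.70, adjusted p = 0.0154), though not without KO 2 (adjusted p = 0.0675) or KO 3 (0.0573), nor with only KO and WT fitted (0.0555). Of 8 class I-like molecules 5 passed the filter, and 1, HLA-G, rose in OE against Lipo (6.79% of all genes tested) at 1.28 ± 1.18 CPM, against 0.156 ± 0.102 CPM. HLA-G was not called in 9 of the alternatives, among them without OE 2 (log2 1.49, adjusted p = 0.506), and in 2 of the 9 it did not pass the filter. AZGP1, a secreted class I-like protein, was the 1 gene of the 5 that fell in KO (7.45% of all genes tested), to 157 ± 23.6 CPM, against 246 ± 41 CPM in WT (log2 -0.65, adjusted p = 0.00675). AZGP1 was higher in Lipo against WT, which carry the same label (564 ± 2.46 against 246 ± 41 CPM, adjusted p = 9.88e-04). In that comparison 3.70% of all genes tested were called in either direction. The median log2 changes of the 5 lists in OE against Lipo were 0.45, 0.40, 0.40, 0.47 and -0.08 in the order given, against 2.27 for the 6 tested class I presentation genes.

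**Figure D4:**
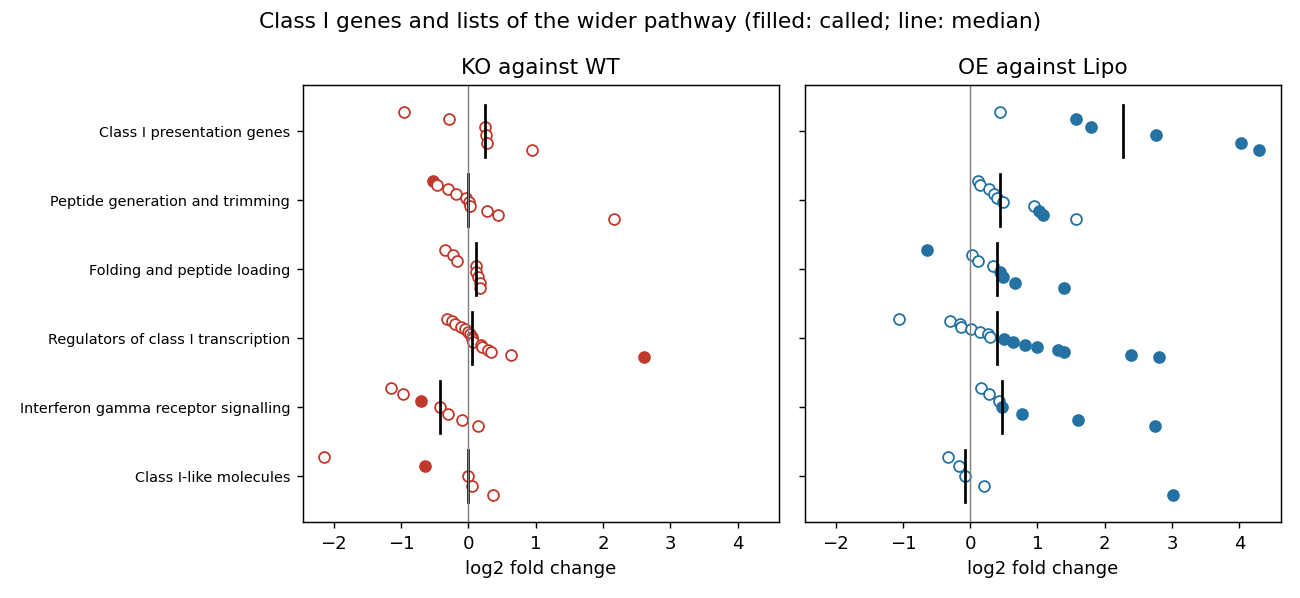
Log2 fold changes (horizontal axis) of the tested class I presentation genes and of the 5 lists, for KO against WT (left) and OE against Lipo (right). Each point is a gene, filled where it passed the test, and vertical lines are medians, which reach 2.27 for the class I genes in OE and lie between -0.08 and 0.47 for the lists there.

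Class I molecules are abundant on leukocytes, so markers of other cell types were read beside these rises. The summed level of 9 leukocyte markers was 10.9 to 12.6 CPM in OE, against 4.28 to 5.20 CPM in Lipo, and 0.971 to 2.51 CPM in KO, against 2.59 to 3.59 CPM in WT. NKG7 was listed at 0 in all libraries, and PTPRC, the pan-leukocyte marker, had 12 reads over all 10 libraries and none in OE or Lipo. Of this list 4 genes passed the filter, and ITGAM rose in OE against Lipo, as did 6.79% of all genes tested. It stood at 3.15 ± 1.40 CPM in OE, against 0.158 ± 0.164 CPM in Lipo, on 7 reads there (log2 4.30, adjusted p = 0.00320). CD68 (log2 1.69) and CD14 (log2 -0.39) were not called in that comparison. CD79A, a B cell marker of the list, fell in KO against WT (0.231 ± 0.197 against 1.09 ± 0.225 CPM, log2 -2.23, adjusted p = 0.00975) and was higher in OE against WT (log2 2.21, adjusted p = 0.00222). Of all genes tested 7.45% were called lower in KO against WT and 12.3% higher in OE against WT. CD79A was not called in OE against Lipo (log2 0.96, adjusted p = 0.213). Nor was it called in Lipo against WT (2.58 ± 0.358 against 1.09 ± 0.225 CPM, log2 1.25, adjusted p = 0.145). Of 4 fibroblast markers DCN and PDGFRA were listed at 0, and only COL1A1 passed the filter. COL1A1, which tumour cells can also express, stood at 308 CPM in OE, against 154 CPM in Lipo (log2 0.99, adjusted p = 0.00643). It was not called in OE against WT (log2 0.41, adjusted p = 0.125), and it fell in KO, to 63.9 ± 6.22 CPM, against 231 ± 65.2 CPM in WT (log2 -1.86, adjusted p = 5.93e-06). The part of these markers in the class I rises was not tested. The summed level of 3 endothelial markers was 2.62 CPM or less in every library.

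The genes with the most similar course over the 10 libraries were sought among 10381 genes outside the lists. The measure was the root mean square difference of log2 CPM, centred per gene, from the mean of the 6 tested members. SP110, a nuclear body protein, and DHX58, a cytosolic RNA sensor, came nearest, each at 0.25 on the log2 scale. SP110 stood at 35.9 ± 3.28 CPM in KO, 214 ± 5.59 in OE, 29.8 ± 1.85 in Lipo and 33.3 ± 1.16 in WT. TRIM21, a cytosolic antibody receptor, and SAMHD1, a deoxynucleotide hydrolase, followed at 0.26, and the NF-kB subunit NFKB2 at 0.29.

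Promoter sequences of 4 of the 5 genes that rose in OE are shown because those genes moved together. They come from RefSeq (GRCh38.p14), which matched 7 of the 9 members, all but HLA-E and NLRC5. Each runs from 250 bases before the RefSeq start of the gene to 50 after it, 5′ to 3′ on the strand of the gene. That start can differ from the GENCODE start, and the HLA-F window lies inside the GENCODE range of HLA-F (chr6:29722775-29738528). HLA-B is chr6:31357130-31357429 (minus strand), HLA-C is chr6:31272043-31272342 (minus), HLA-F is chr6:29723184-29723483 (plus) and B2M is chr15:44711267-44711566 (plus). Capitals mark matches, on either strand, to 4 short motifs. The first is the interferon-stimulated response element type, here GAAA and another GAAA with 2 free bases between them. CCAAT is the type bound by NF-Y. TGACG is the type bound by CREB. TTCNNNGAA is the GAS type.
HLA-B: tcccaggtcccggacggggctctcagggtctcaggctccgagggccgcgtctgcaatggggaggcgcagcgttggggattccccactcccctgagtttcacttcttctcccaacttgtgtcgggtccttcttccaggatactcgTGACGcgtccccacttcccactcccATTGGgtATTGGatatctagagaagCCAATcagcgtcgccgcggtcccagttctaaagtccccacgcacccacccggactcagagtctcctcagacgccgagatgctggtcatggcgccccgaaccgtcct
HLA-C: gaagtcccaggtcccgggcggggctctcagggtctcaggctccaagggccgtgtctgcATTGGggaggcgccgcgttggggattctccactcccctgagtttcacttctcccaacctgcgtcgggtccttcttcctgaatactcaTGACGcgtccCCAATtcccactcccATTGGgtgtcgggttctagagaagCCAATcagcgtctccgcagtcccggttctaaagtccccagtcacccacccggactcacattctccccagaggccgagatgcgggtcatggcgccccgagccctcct
HLA-F: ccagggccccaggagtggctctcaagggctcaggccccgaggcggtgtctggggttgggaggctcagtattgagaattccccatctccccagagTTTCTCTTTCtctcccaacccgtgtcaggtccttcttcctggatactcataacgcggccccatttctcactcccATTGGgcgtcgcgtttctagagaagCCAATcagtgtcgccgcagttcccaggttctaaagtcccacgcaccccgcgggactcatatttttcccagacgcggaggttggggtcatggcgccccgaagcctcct
B2M: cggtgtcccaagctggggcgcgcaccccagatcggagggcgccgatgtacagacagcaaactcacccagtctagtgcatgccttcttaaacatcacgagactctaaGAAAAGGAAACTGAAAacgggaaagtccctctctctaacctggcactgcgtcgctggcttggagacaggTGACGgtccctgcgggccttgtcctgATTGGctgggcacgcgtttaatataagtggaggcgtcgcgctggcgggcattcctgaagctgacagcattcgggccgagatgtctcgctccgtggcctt

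Matches to CCAAT stood at like distances from the RefSeq start of the gene in the heavy chain promoters shown. They began at 81, 74 and 56 bases upstream in HLA-B, at 192, 95, 80 and 56 in HLA-C, and at 82 and 57 in HLA-F. B2M had 1 match, at 49 bases upstream. Of 35116 RefSeq promoters of this length, 34.6% held CCAAT. Matches to TGACG began at 106 bases upstream in HLA-B, 105 in HLA-C and 75 in B2M, and 24.6% of all promoters held it. The interferon-stimulated type was found once in HLA-F, at 156 bases upstream, and in 2 overlapping matches in B2M, at 144 and 138 bases, while 3.57% of all promoters held it. It was also found in the promoters of TAP1, TAP2 and TAPBP, of which TAP2 alone passed the filter, on few reads, while the GAS type, held by 7.66% of all promoters, was not in the 4 windows shown. Over the aligned window HLA-B and HLA-C were 88.5% identical, HLA-B and HLA-F 79.7%, and HLA-B and B2M 47.6%. The pair of promoters most alike, HLA-B and HLA-C, belonged to the genes with the largest and the smallest fitted rise of the 5 in OE against Lipo. In OE against WT the smallest was that of B2M (log2 1.64, against 2.74 for HLA-C). Any link between promoter sequence and size of the rise was not tested. These matches describe the reference sequence, and binding of a factor was not measured. Only exact matches were searched, so looser forms of these motifs stay unmarked, in HLA-B and HLA-C too.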

How the data were processed

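Per the labels' protocols, a stranded kit made the libraries from total RNA. Tools listed in the submitters' processing notes, with no role or order, are featureCounts, FastQC, edgeR and HISAT2 2.1.0, and the build is GRCh38. The authors' deposited values are read counts, whole numbers without normalization, judging by the values. Of its 62710 entries 1 had no values. A further 2 columns matched no sample and were not used. Positions and exon lengths came from GENCODE release 29 (GRCh38).

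Counts were tested with edgeR 4.0.16 in R 4.3.3. After filterByExpr and TMM scaling, a robust quasi-likelihood model with 1 coefficient per group was fitted to all 10 libraries (6 residual degrees of freedom). Tests were two-sided, with Benjamini-Hochberg adjustment over 15832 genes and a threshold of 0.05. The SE is the log2 change divided by the square root of F. CPM use the TMM-scaled library size. Alternatives were DESeq2 1.42.0, scaling by RLE or by library size, no filter, a filter of 1 CPM in 3 libraries and 100 reads in all, only the groups compared, mitochondrial and structural RNA genes left out, another control, a replicate block and each library left out. For the similar genes, log2 CPM had a prior count of 2, and a mean of at least 2 was asked for.

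All 9 members are named. Of each list up to 4 genes with the smallest p in KO against WT and in OE against Lipo were eligible, of which those called are named with a few chosen after their values were seen. The members, lists and tests were chosen with earlier results of these data known. Some genes of the lists are counted in them but not reported here by name.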

Additional observations from a re-analysis of the deposited data

How the results depend on the processing

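The direction and call of the rises in OE of HLA-B, HLA-F, B2M and NLRC5 held against Lipo and against WT under every alternative run, and the number of members called in OE against Lipo was 4 or 5. In KO against WT, where none was called, the count was 1 with Lipo and WT pooled as control, 0 to 2 with single libraries left out and 2 without WT 1 and KO 1 together, an alternative chosen after seeing the data. In Lipo against WT, where none was called, it was 1 with DESeq2 and 2 with no filter on low counts, and 0 in each run with a library left out.

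Over 30 fold changes of members and 562 recomputed values, 539 kept their direction and side of the threshold. None of the 12 that changed sign had passed the test. In KO against WT these were HLA-B, at -0.06 with that pooled control (-0.06 to 0.49 with single libraries left out), and HLA-F, at -0.17 without WT 1 and KO 1 (-0.42 to 0.72). In Lipo against WT they were B2M, at 0.08 with the replicate block and 0.19 without WT 1 and KO 1 (-0.31 to 0.19), TAP2 (-0.33 to 0.68) and NLRC5 (-0.07 to 0.46). The cause was not tested.

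The replicate numbers are shared between KO and WT, but the pairing was not seen for each number. Deviations from the group means correlated by 0.33, 0.06 and 0.18 between libraries with numbers 1, 2 and 3. Between unlike numbers the correlation ran from -0.24 (WT 1 with KO 3) to 0.09 (WT 2 with KO 3). WT 2 was thus closer to KO 3 than to KO 2. With the number as a block, the members called stayed at 0 in KO against WT and in Lipo against WT, at 5 in OE against Lipo, in OE against WT and in the difference of effects, while calls over all genes in KO against WT went to 2874, against 1992 without the block.

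Counts over all genes moved more than the members' calls. For OE against Lipo they were 1950, 5664 with only these groups fitted, 3477 without WT 1 and KO 1, and 673 to 2657 with single libraries left out. For KO against WT they were 1216 with only these groups fitted and 1125 to 2297 with single libraries left out. For Lipo against WT they were 586, 992 with DESeq2, 1100 with no filter, 1157 without WT 1 and KO 1, and 34 to 977 with single libraries left out. They were 3953 for OE against WT and 1622 to 4785 with single libraries left out, and 2632 and 1373 to 3023 for the difference of effects. TAP2 gave no value under the stricter filter or without WT 1 and KO 1, nor with only the groups fitted in the comparisons that involve OE or Lipo, nor by DESeq2 in Lipo against WT. The number of reads limits TAP2, HLA-E and HLA-G, and with 2 OE and 2 Lipo libraries the error rests on all 4 groups.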
